A study of Rattus norvegicus with 6 samples.

Results

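The genes described here are Il2ra, Il2rb, Il2rg, Il4r, Il7r, Il21r, Il10ra, Il10rb, Il13ra1 and Il15. They are the receptor subunits built around the common gamma chain, the subunits of the interleukin 10 (IL-10) receptor, the partner chain that IL-4 and IL-13 share, and one ligand, Il15. Each was taken by its exact symbol from the gene table, which gave 10 genes of the 30957 listed. RNA was sequenced from the lumbar spinal cord of female Wistar rats 14 days after surgery on the left tibia. In 3 libraries the rats had received living Walker 256 cells, a rat breast carcinoma line that grows in the marrow cavity and gives bone cancer pain (BCP rats). In the other 3 the rats had received heat-killed cells of the same line (sham-operated rats), so the operation and dead tumor material were common to both groups. The tissue was the lumbar enlargement of the operated side without its meninges, a bulk sample of neurons, glia, vessels and any blood-derived cells. In such a sample more cells of a type and more RNA per cell cannot be told apart.

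The common gamma chain, encoded by Il2rg, is a signalling subunit that the receptors for IL-2, IL-4, IL-7, IL-9, IL-15 and IL-21 share. Each pairs it with another chain, which for IL-2 and IL-15 is the same one, Il2rb. Il2rg binds the kinase JAK3, the partner chains mostly bind JAK1, and the kinases then activate STAT transcription factors, which among their targets switch on feedback inhibitors of the SOCS family. The IL-10 receptor belongs to a related class: Il10ra binds IL-10, and Il10rb is a shared accessory chain that also serves the receptors for IL-22 and for the lambda interferons. On lymphocytes these receptors govern growth and survival, and on macrophages and microglia the receptors for IL-4 and IL-10 are known for restraining inflammatory genes.

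The gene counts summed to 13366905, 14490611 and 15004290 in the sham libraries and to 11779485, 13764758 and 12962115 in the BCP libraries. The 10 genes together held 462, 493 and 520 counts in the sham-operated rats and 1240, 1636 and 1699 in the BCP rats. Their share of all counts was 0.0034% to 0.00347% in sham and 0.0105% to 0.0131% in BCP. The groups did not overlap in that share. Markers of other cell types differed between the groups as well. Of 9 T cell markers 7 were tested and all 7 were up-regulated, against 6.35% of all genes tested. Only Cd4 of these 7 would have passed the filter on low counts on the sham libraries alone. The others were tested only through the BCP libraries. The summed level of the 9 markers went from 6.08 to 6.63 CPM (counts relative to library size) in sham to 49.9 to 58.8 in BCP. Cd3d, Cd5 and Cd8b were at 0 counts in every sham library, and most of the sham sum was Cd4, which rat macrophages carry too, with 58, 81 and 77 counts. The summed natural killer cell markers went from 0.152 to 0.768 CPM in sham to 15.3 to 26.7 in BCP, with 4 of 4 tested genes up-regulated. All 4 passed the filter only through the BCP libraries. The summed microglial markers went from 349 to 425 CPM to 757 to 889, and 4 of 8 were up-regulated. The B cell markers stayed below the test's filter (0.209 to 0.54 CPM against 0.928 to 1.13), and none of the 4 tested monocyte and macrophage markers was called (13.7 to 18.8 CPM against 13.4 to 17.9). Ccr2, the other gene of that last list, was not tested, at 0 counts in every sham library and 1 in every BCP library. Markers of the tissue itself were high in all libraries, with summed levels of 2260 to 2380 CPM in sham and 2120 to 2330 in BCP for neurons, 35200 to 40300 and 25100 to 28100 for oligodendrocytes, and 3210 to 3540 and 4950 to 6700 for astrocytes. No gene of these 3 lists was called at 2-fold, but all 4 oligodendrocyte markers and 2 of 5 neuron markers (Rbfox3 and Slc32a1) fell with an adjusted p under 0.05. The astrocyte markers went opposite ways: Gfap rose (log2 fold change 0.80, adjusted p = 5.27e-05), Slc1a2 (-0.37, adjusted p = 1.65e-06) and Aldh1l1 (-0.26, adjusted p = 0.0123) fell, and Aqp4 stood at 2413 CPM in BCP replicate 1 alone, against 353 to 379 in the other libraries. The part of these cell types in the results below was not tested.

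A gene was called up-regulated at an adjusted p under 0.05 in edgeR's quasi-likelihood test and a change of more than 2-fold, that is a log2 fold change over 1. Of all 14908 genes tested, 946 met this, or 6.35% (6.45% in either direction). Of the 10 genes 9 were tested and 7 were up-regulated: Il2ra, Il2rb, Il2rg, Il7r, Il21r, Il10ra and Il13ra1. Il4r and Il10rb also rose, with an adjusted p under 0.05, but by less than 2-fold in the main fit. With no threshold on the fold, 9 of the 10 genes rose, against 15.8% of the genes tested. In 9 of the 10 genes each BCP library lay above each sham library in CPM, which was so in 21.7% of the genes tested. The median log2 fold change was 1.85 over the 9 genes and -0.01 over all genes tested. Il2ra, Il2rb and Il21r passed the filter on low counts only through the BCP libraries, and of the 6 genes that would have passed on the sham libraries alone 4 were called. No source used here says how many rats went into a library, so the p-values measure the spread between these libraries.

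**Figure D1:**
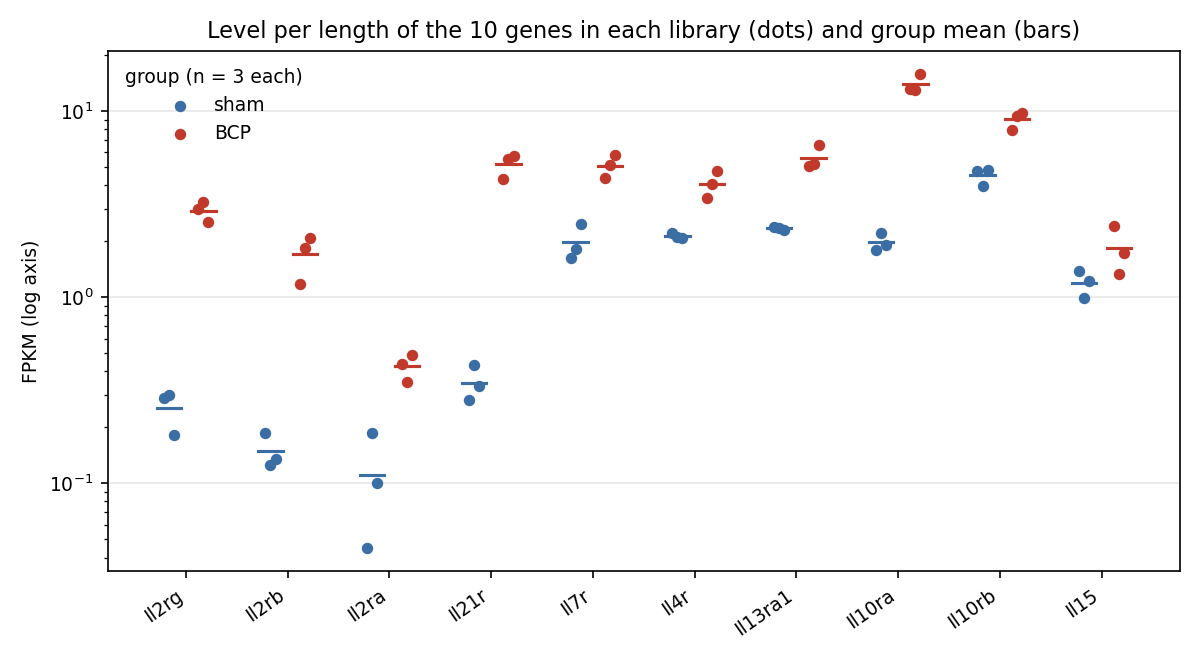
Level of each gene in FPKM, the depth-scaled count per length of transcript (log axis), in each of 3 sham libraries (blue) and 3 BCP libraries (red), with the group mean as a bar. Colours separate for 9 genes and overlap for Il15, and Il10ra goes from 1.98 in sham to the highest mean in BCP, 14.0.

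Il2rg was among the genes of the set that changed most. It lies on chrX:71162585-71169865 (Rnor_6.0) and was counted 17, 19 and 12 times in the sham libraries and 154, 198 and 145 times in the BCP libraries. The lowest BCP library lay far above the highest sham library. The level was 1.14 ± 0.289 CPM (SD, n = 3) in sham and 12.7 ± 1.6 CPM (n = 3) in BCP, an 11.1-fold rise (log2 fold change 3.47, SE 0.22, adjusted p = 2.55e-10).

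Il2rb, the signalling chain that the IL-2 and IL-15 receptors share, rose by nearly as much. Its counts were 11, 8 and 9 in sham and 61, 112 and 119 in BCP (chr7:119701251-119716238). BCP replicate 1 was the lowest of its group, still above all sham libraries. The level went from 0.668 ± 0.149 CPM to 7.38 ± 2.0 CPM, or 11-fold (log2 fold change 3.46, SE 0.30, adjusted p = 2.28e-08). Il2ra, the alpha chain that raises the affinity for IL-2 and marks regulatory and activated T cells, had the lowest level per length of the 10 genes in both groups (in FPKM, given further on). It was counted 2, 9 and 5 times in sham and 17, 16 and 21 times in BCP (chr17:70499083-70548071). The groups did not overlap, but sham replicate 2 alone held more than the other sham libraries together. The log2 fold change of Il2ra was 1.85 (SE 0.45, adjusted p = 0.00403), the widest error in the set, and it was 2.43 without sham replicate 2.

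Il21r encodes the specific chain for IL-21, a cytokine of helper T cells that acts on B, T and natural killer cells. It had the highest fold change of the tested genes of the set. Counts were 9, 15 and 12 in sham against 122, 182 and 179 in BCP (chr1:196996581-197024166). The level rose from 0.847 ± 0.183 CPM to 12.3 ± 1.73 CPM, or 14.3-fold (log2 fold change 3.84, SE 0.23, adjusted p = 1.09e-10). Il4r, which binds IL-4 and is the signalling chain of both forms of the IL-4 receptor, lies 29.4 kb away on the same chromosome (chr1:196942364-196967220). Its counts were 180, 187 and 190 in sham and 246, 341 and 375 in BCP. The sham libraries lay close together and all BCP libraries lay above them. From 13.2 ± 0.462 CPM the level of Il4r went to 24.5 ± 3.8 CPM, 1.86-fold (log2 fold change 0.90, SE 0.12, adjusted p = 5.77e-06). Without BCP replicate 1 the log2 fold change was 1.01, past the 2-fold threshold. Its lowest value among the alternatives was 0.78, without BCP replicate 3.

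Il7r, the chain for IL-7 that also serves the receptor for TSLP, was annotated on an unplaced scaffold of Rnor_6.0 (KL567908.1, positions 25355 to 47617). It was counted 30, 36 and 51 times in sham and 71, 97 and 103 times in BCP. Sham replicate 3 was the highest of its group and stayed below BCP replicate 1. The level went from 2.75 ± 0.613 CPM to 6.9 ± 0.898 CPM, 2.5-fold (log2 fold change 1.32, SE 0.21, adjusted p = 7.65e-05). Il13ra1 pairs with Il4r to form the receptor through which cells outside the lymphoid lineage answer IL-4 and IL-13. Its counts were 41, 44 and 44 in sham and 77, 92 and 109 in BCP (chrX:122724129-122781479). The sham libraries were nearly equal and the BCP libraries all lay higher. The level rose from 3.05 ± 0.0778 CPM to 7.11 ± 0.988 CPM, 2.33-fold (log2 fold change 1.22, SE 0.20, adjusted p = 7.46e-05).

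Both chains of the IL-10 receptor rose. Il10ra, the ligand-binding chain, was counted 48, 64 and 57 times in sham and 310, 355 and 407 times in BCP (chr8:49560035-49573742). The level went from 3.99 ± 0.423 CPM to 27.4 ± 2.93 CPM, 6.85-fold (log2 fold change 2.78, SE 0.13, adjusted p = 5.99e-12, the lowest adjusted p among the 10 genes). Il10rb, the shared accessory chain, was counted 115, 104 and 131 times in sham and 168, 234 and 230 times in BCP (chr11:31560530-31582457). Its groups did not overlap either. The level of Il10rb went from 8.29 ± 0.893 CPM to 16.1 ± 1.69 CPM, 1.95-fold (log2 fold change 0.96, SE 0.13, adjusted p = 1.64e-05). The log2 fold change was 1.00 with library size as the only scaling, 1.01 without sham replicate 3 and 1.05 without BCP replicate 1, and was called in each of these. Its lowest value among the alternatives was 0.87, without sham replicate 2, where it was not called.

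Il15, the one ligand of the set, is a cytokine for natural killer and memory T cells that is presented by its own alpha chain, Il15ra. It was counted 9, 7 and 9 times in sham and 14, 9 and 11 times in BCP (chr19:23542889-23554594) and did not pass the filter, which asked for 0.737 CPM in at least 3 libraries. The groups touched at 9 counts on the raw scale and overlapped in CPM, at 0.594 ± 0.0993 in sham and 0.886 ± 0.274 in BCP. Without the filter, edgeR gave a log2 fold change of 0.56 (SE 0.46, adjusted p = 0.48). At these counts a change of this size was not detectable.

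The order of the 10 genes by level changed between the groups. FPKM, which divides by transcript length, allows genes to be compared with each other, as far as the lengths the authors used hold (the values imply about 489 bases for Il15 and 6096 for Il4r). In the sham-operated rats Il10rb stood highest at 4.53 ± 0.478 FPKM, followed by Il13ra1 at 2.35 ± 0.0551. Il4r (2.13 ± 0.0676 FPKM), Il10ra (1.98 ± 0.216) and Il7r (1.97 ± 0.443) came next and did not differ beyond the spread of their libraries. Il13ra1 was not apart from Il7r either, whose range of 1.63 to 2.47 FPKM took in that of Il13ra1, 2.29 to 2.39. Il15 followed at 1.2 ± 0.196 FPKM. At the bottom stood Il21r (0.348 ± 0.0765 FPKM), Il2rg (0.256 ± 0.0645), Il2rb (0.149 ± 0.0328) and Il2ra (0.111 ± 0.0718), where each overlapped the next. In the BCP rats Il10ra stood first at 14.0 ± 1.55 FPKM, above Il10rb at 9.05 ± 1.02 with no overlap. Il13ra1 (5.63 ± 0.813 FPKM), Il21r (5.19 ± 0.769), Il7r (5.1 ± 0.699) and Il4r (4.08 ± 0.66) formed a middle group in which each overlapped its neighbour. Il2rg followed at 2.92 ± 0.365 FPKM, then Il15 (1.83 ± 0.553) and Il2rb (1.7 ± 0.471), which overlapped, and Il2ra was again lowest at 0.425 ± 0.0697. Il21r thus went from the low group of the sham-operated rats to the middle group of the BCP rats.

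The receptors work as pairs of chains, so the balance within each pair was compared next. The log2 ratio of the counts of both chains was taken in each library, which cancels the library size, and the groups were compared by a two-sided exact permutation test. With 3 libraries against 3 this exact test cannot go below p = 0.1, so no ratio could pass a threshold of 0.05. The count ratio depends on transcript length, but its difference between the groups does not.

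Il10ra against Il10rb had log2 ratios of -1.25, -0.70 and -1.19 in sham and 0.88, 0.60 and 0.82 in BCP. The ratio was below 0 in all sham libraries and above 0 in all BCP libraries, a difference of 1.82 (exact permutation p = 0.1, Benjamini-Hochberg adjusted p = 0.175 over the 7 pairs). The partners of Il2rg were set against it in the same way. Il4r over Il2rg went from 3.52 ± 0.36 to 0.94 ± 0.37, a difference of -2.58, and Il7r over Il2rg from 1.25 ± 0.69 to -0.88 ± 0.34, a difference of -2.13. In both pairs the groups did not overlap (exact permutation p = 0.1, adjusted p = 0.175). Il7r was counted more often than Il2rg in every sham library and less often in every BCP library. This crossing holds for counts only, since the lengths differ (about 1374 bases implied for Il7r and 4409 for Il2rg). Per length Il7r stayed above Il2rg in both groups, at 1.97 against 0.256 FPKM in sham and 5.1 against 2.92 in BCP.

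Il21r over Il2rg was -0.40 ± 0.45 in sham and -0.05 ± 0.32 in BCP, a difference of 0.35 within the spread (exact permutation p = 0.5, adjusted p = 0.583), and one of 0.11 without sham replicate 1, 0.18 without BCP replicate 3 and 0.56 without sham replicate 3. Il2rb over Il2rg was -0.73 ± 0.42 and -0.81 ± 0.52, a difference of -0.08 (exact permutation p = 0.8, adjusted p = 0.8) whose sign turned when sham replicate 3 (0.09) or BCP replicate 1 (0.18) was left out. Il2ra over Il2rb went from -0.94 ± 1.19 to -2.35 ± 0.49 with overlapping groups (exact permutation p = 0.2, adjusted p = 0.28). That difference of -1.41 rested on single sham libraries, being -2.04 with no overlap when sham replicate 1 was left out and -0.86 when sham replicate 2 was. Il4r over Il13ra1, the pair that answers both IL-4 and IL-13, moved least among the pairs whose groups were apart, from 2.10 ± 0.02 to 1.78 ± 0.11 (exact permutation p = 0.1, adjusted p = 0.175).

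**Figure D2:**
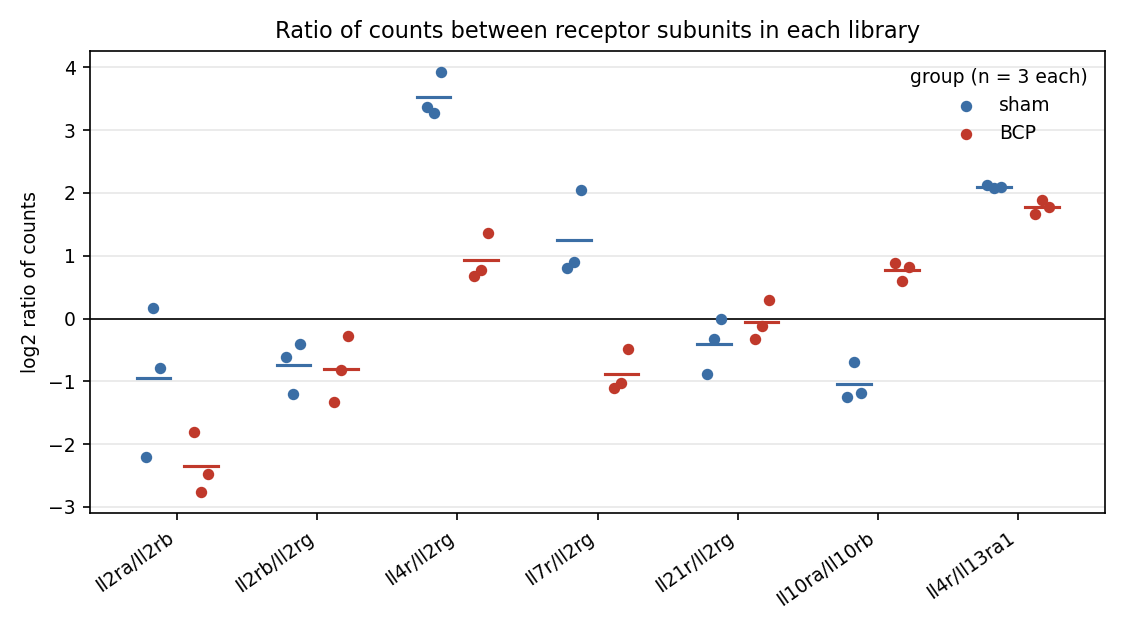
The log2 ratio of counts between subunits of a receptor in each sham (blue) and BCP (red) library, with group means as bars (n = 3 each). Il10ra/Il10rb lies below 0 in sham and above 0 in BCP, Il4r/Il2rg and Il7r/Il2rg lie lower in BCP, and Il2rb/Il2rg and Il21r/Il2rg overlap.

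The genes were then set against Ptprc, which encodes CD45, a surface protein of all leukocytes that microglia carry at low level. Ptprc was counted 228, 194 and 164 times in sham and 1504, 2098 and 2262 times in BCP, with a log2 fold change of 3.42 (SE 0.21, adjusted p = 0.000332). Il2rg and Il2rb differed from Ptprc in their change by less than the spread of the libraries. The log2 ratio of Il2rg to Ptprc was -3.58 ± 0.23 in sham and -3.55 ± 0.36 in BCP (exact permutation p = 0.9, adjusted p = 0.9 over 10 genes), and that of Il2rb was -4.31 ± 0.20 and -4.36 ± 0.22 (exact permutation p = 0.7, adjusted p = 0.778). Il21r differed by 0.39 with overlap between the groups (exact permutation p = 0.2, adjusted p = 0.25). Il10ra rose less than Ptprc, with a difference of -0.66 and no overlap (exact permutation p = 0.1, adjusted p = 0.167). The groups nearly touched, at -2.24 in sham replicate 1 and -2.28 in BCP replicate 1. Il4r (-2.55), Il10rb (-2.47), Il13ra1 (-2.23) and Il7r (-2.09) lay lower against Ptprc in every BCP library than in any sham library, as did Il15 (-2.90), each with an exact permutation p = 0.1 and an adjusted p = 0.167. Il2ra differed by -1.45 with overlap (exact permutation p = 0.2, adjusted p = 0.25). These ratios depend on the reference. Where the reference itself rises, a gene that did not change would also lie lower against it in BCP. Against Aif1, a gene of microglia and macrophages counted 150, 109 and 144 times in sham and 550, 684 and 742 in BCP, Il2rg (1.05), Il2rb (0.97) and Il21r (1.40) lay higher in every BCP library (exact permutation p = 0.1, adjusted p = 0.125 for each). With that reference Il10ra (0.36) and Il2ra (-0.44) overlapped, while Il4r (-1.53), Il10rb (-1.45), Il13ra1 (-1.21), Il7r (-1.07) and Il15 (-1.88) still lay lower.

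**Figure D3:**
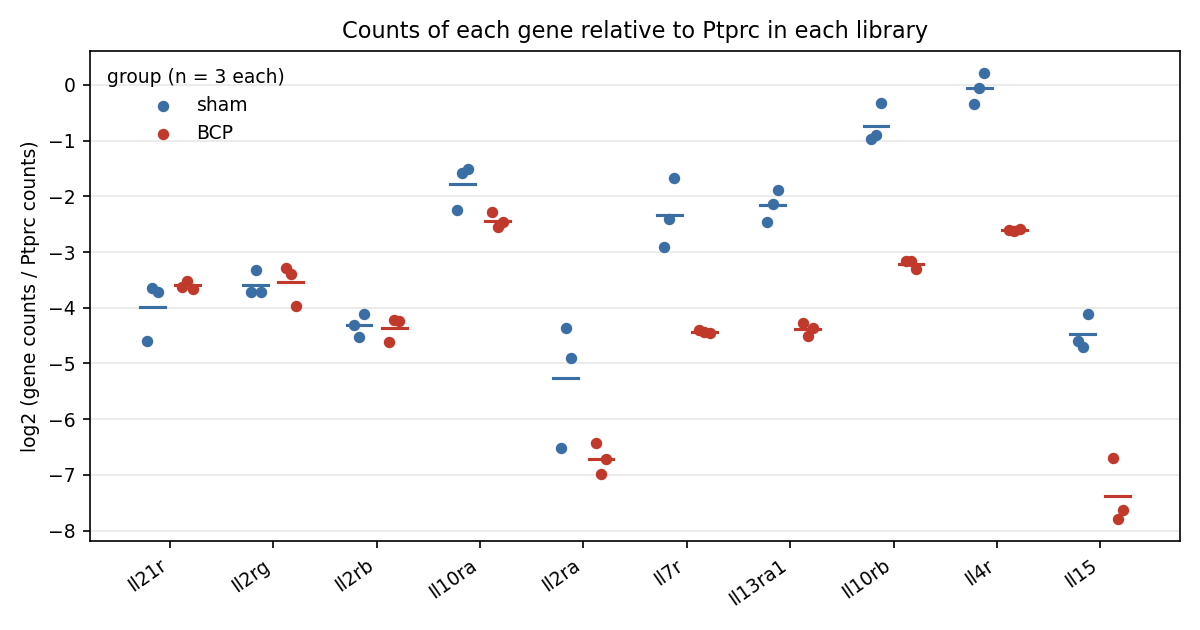
The log2 ratio of the counts of each gene to those of Ptprc in each sham (blue) and BCP (red) library, with group means as bars (n = 3 each) and genes ordered by the difference. Il21r, Il2rg and Il2rb overlap between the groups, and Il4r, with a difference of -2.55, and Il15, with -2.90, are among those that lie lower in all BCP libraries.

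The other parts of these pathways were taken from a list of 35 ligands, partner subunits, interferon receptors of the same class, Janus kinases, STATs and feedback genes, of which 22 were tested. Among these 22 genes 6 were up-regulated, against 6.35% of all genes tested. Of the 6, Socs1 and Socs3 passed the filter on low counts only through the BCP libraries. A rise of any size with an adjusted p under 0.05 was found in 14, against 15.8%. None fell (edgeR, 0 at an adjusted p under 0.05 and 0 at an unadjusted p under 0.05, and 0 called by DESeq2). Of all 14908 genes tested only 16 were called lower, so 0 at the 2-fold call says little. With no fold threshold 1805 of all genes fell. Ligands were scarce. Il2, Il4, Il9, Il13 and Il22 had 0 counts in all 6 libraries, and none of the 9 ligands other than Il15 passed the filter. Il10 was counted 0, 0 and 0 times in sham and 3, 3 and 0 times in BCP, and Il21 6, 5 and 4 times in sham and 9, 7 and 6 times in BCP. Il7, the ligand of Il7r, had 2, 7 and 8 counts in sham and 5, 9 and 10 in BCP, so the groups overlapped. A count of 0 allows up to 3 counts by counting error alone.

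Of 8 partner subunits 4 were tested, and Il15ra, the chain that presents IL-15 to Il2rb and Il2rg, was up-regulated. Its counts were 24, 23 and 20 in sham and 99, 120 and 101 in BCP, with no overlap (log2 fold change 2.36, SE 0.21, adjusted p = 4.76e-08). It lies 17.3 kb from Il2ra. Crlf2, the partner of Il7r in the TSLP receptor, had a log2 fold change of 0.20 (adjusted p = 0.458), and Il22ra2 (0.11, adjusted p = 0.728) and Il20ra (0.07, adjusted p = 0.913), other chains of the class of the IL-10 receptor, did not pass either. Il10rb sits in a row of interferon receptor genes on chromosome 11, 1.68 kb from Ifnar2 and 57.9 kb from Ifnar1, with Ifngr2 30.3 kb beyond Ifnar1. The log2 fold changes along this row differed, at 0.27 for Ifnar2 (SE 0.12, adjusted p = 0.111), 0.96 for Il10rb, 0.17 for Ifnar1 (SE 0.05, adjusted p = 0.0168) and 0.96 for Ifngr2 (SE 0.08, adjusted p = 9.06e-09). Ifnlr1, which pairs with Il10rb to bind lambda interferons, was counted 17, 44 and 63 times in sham and 76, 141 and 103 times in BCP (log2 fold change 1.48, SE 0.34, adjusted p = 0.00991), a call that was lost when sham replicate 2 or BCP replicate 3 was left out.

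Among the kinases Jak3, the one that binds Il2rg, was up-regulated. It was counted 113, 140 and 114 times in sham and 234, 355 and 330 times in BCP (log2 fold change 1.43, SE 0.13, adjusted p = 4.67e-08). Jak2 (0.69, adjusted p = 4.6e-06), Tyk2 (0.32, adjusted p = 0.003) and Jak1 (0.23, adjusted p = 0.000284) rose by less than 2-fold. Of the STATs, Stat6, the factor downstream of Il4r, was up-regulated, with 217, 201 and 233 counts in sham and 411, 592 and 623 in BCP (log2 fold change 1.43, SE 0.11, adjusted p = 1.29e-08). Stat3, the factor of the IL-10 and IL-21 receptors, rose by 0.80 on the log2 scale (SE 0.06, adjusted p = 2.37e-08). Stat5a (0.09, adjusted p = 0.571) and Stat5b (0.10, adjusted p = 0.283), the factors of the IL-2, IL-7 and IL-15 receptors, did not pass the test.

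The feedback inhibitors Socs3 and Socs1 were up-regulated. Socs3, a target of STAT3, had 8, 6 and 12 counts in sham and 61, 69 and 55 in BCP (log2 fold change 2.93, SE 0.30, adjusted p = 2.94e-07), and Socs1 had 6, 5 and 1 in sham and 15, 42 and 28 in BCP (log2 fold change 2.88, SE 0.49, adjusted p = 0.000161). Neither group pair overlapped. Cish, a target of STAT5, rose by 0.73 on the log2 scale (SE 0.22, adjusted p = 0.0159), and Socs2, another STAT5 target, had a log2 fold change of 0.05 (adjusted p = 0.9).

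**Figure D4:**
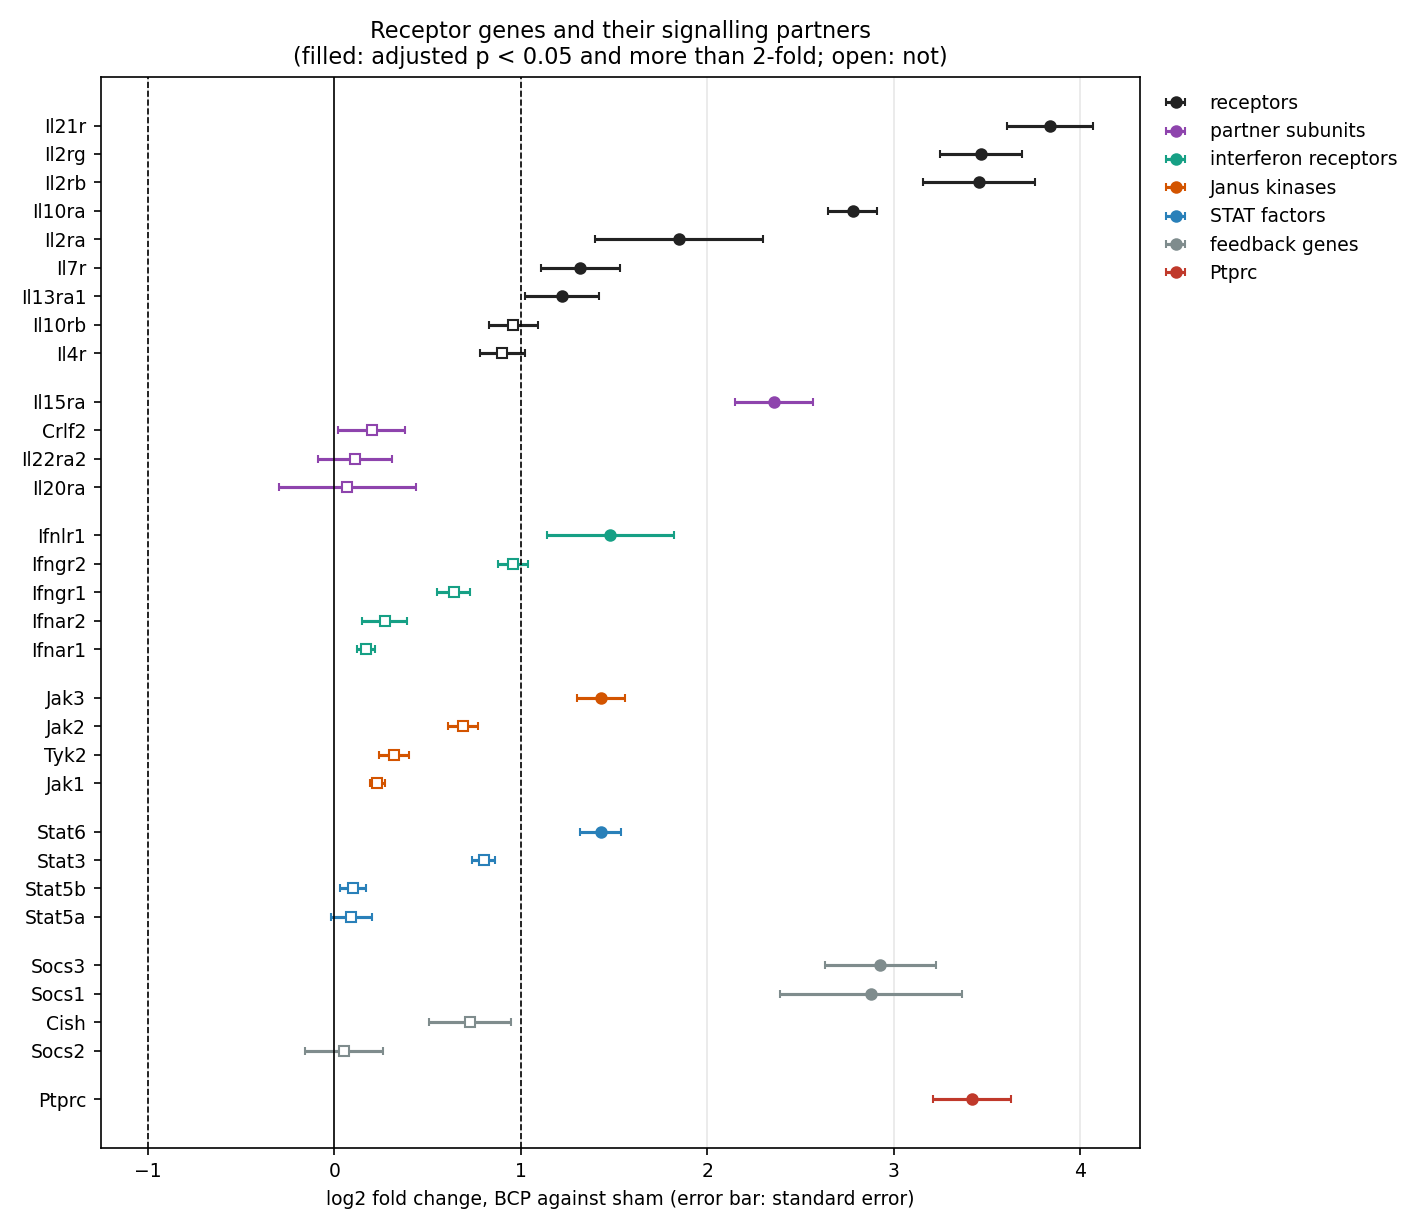
The log2 fold change of BCP against sham with its standard error for tested receptor genes, their partners and Ptprc (edgeR, 3 libraries per group). Filled circles mark an adjusted p under 0.05 with more than 2-fold change, dashed lines a log2 fold change of 1 in either direction. The genes of the set run from 0.90 (Il4r) to 3.84 (Il21r), and Stat5a and Stat5b lie near 0.

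The genes whose pattern over the 6 libraries was most like that of Il2rg, by root mean square distance of their centred log2 CPM, were Slamf8 (distance 0.164), Samsn1 (0.214) and Eomes (0.221). Their log2 fold changes were 3.30, 3.50 and 5.60, the last resting on 0, 1 and 0 counts in sham. The distances were taken with a prior count of 2, which shrinks changes of genes near 0 counts. The small distance of Eomes thus depends on that prior, as its fold change lay well above the log2 value of 3.47 for Il2rg. Nearest to Il10ra were Myo1f (0.0965), Ms4a6a (0.108) and Tnfrsf13c (0.13), with log2 fold changes of 2.72, 2.72 and 3.14. Sham counts were low for Tnfrsf13c (4, 7 and 5) and Samsn1 (9, 10 and 5) too, so the prior count also bears on their distances. Slamf8 encodes a surface receptor of myeloid cells, Eomes a transcription factor of cytotoxic lymphocytes and Tnfrsf13c the receptor for the B cell factor BAFF.

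The promoters of 4 of the genes are shown because Il2rg, Il21r and Il10ra were among the genes of the set that rose most, and Il7r and Il21r hold matches to a motif. They are the 250 bases before the RefSeq start on GRCr8, in the direction of transcription: Il2rg at chrX:70439001-70439250 (minus strand), Il21r at chr1:189598503-189598752 (plus), Il10ra at chr8:54474787-54475036 (minus) and Il7r at chr2:60204918-60205167 (minus, so a placed gene on that build). Capitals mark matches to the motifs searched.
Il2rg: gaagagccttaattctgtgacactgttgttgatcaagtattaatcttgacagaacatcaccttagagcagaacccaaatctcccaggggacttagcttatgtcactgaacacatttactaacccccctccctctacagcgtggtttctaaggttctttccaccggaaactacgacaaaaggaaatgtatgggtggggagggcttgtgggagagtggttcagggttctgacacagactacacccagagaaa
Il21r: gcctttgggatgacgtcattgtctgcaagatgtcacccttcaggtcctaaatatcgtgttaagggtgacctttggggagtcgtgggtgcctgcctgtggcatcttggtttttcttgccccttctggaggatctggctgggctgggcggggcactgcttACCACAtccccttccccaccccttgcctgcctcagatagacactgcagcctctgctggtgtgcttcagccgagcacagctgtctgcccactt
Il10ra: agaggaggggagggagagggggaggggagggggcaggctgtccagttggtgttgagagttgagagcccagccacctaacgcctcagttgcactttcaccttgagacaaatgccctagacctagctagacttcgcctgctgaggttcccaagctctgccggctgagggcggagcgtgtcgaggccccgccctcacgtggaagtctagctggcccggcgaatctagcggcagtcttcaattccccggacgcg
Il7r: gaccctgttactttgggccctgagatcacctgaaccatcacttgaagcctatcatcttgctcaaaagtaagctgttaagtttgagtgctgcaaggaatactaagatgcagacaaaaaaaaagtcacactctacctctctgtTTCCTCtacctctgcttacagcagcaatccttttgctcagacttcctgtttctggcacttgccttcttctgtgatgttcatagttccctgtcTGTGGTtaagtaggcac

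RefSeq promoters were at hand for 9 of the 10 genes, all but Il2rb. They were searched on both strands for the letters of 4 motifs: the STAT site TTCNNNGAA, the interferon-regulatory factor motif GAAANNGAA, the PU.1 motif GAGGAA and the RUNX motif TGTGGT. The STAT letters stood in 7.67% of 33469 rat promoters of the same length and in 0 of the 9. The RUNX letters stood in 14.5% of all promoters and in those of Il21r (92 to 87 bases before the start) and Il7r (17 to 12 bases before it). The PU.1 letters stood in 23.3% of all and in those of Il7r (109 to 104 bases before the start) and Il15 (20 to 15). The interferon-regulatory motif stood in 8.12% of all and in that of Il15 alone (26 to 18 bases before the start, overlapping its PU.1 match). A match of these letters is a description of the sequence and does not show a bound site.

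The lncRNA table gave a readout at the same loci that the choice of genes did not use. Within 10 kb of the 10 genes lay 7 lncRNAs, near Il2rg, Il21r, Il10rb and Il15, and 3 of them overlapped the span of Il15. None of the 4 tested was called by edgeR or DESeq2, and none had an unadjusted p under 0.05 in edgeR. Of all 12157 lncRNAs tested 1.14% were called higher, so 0 calls among 4 says little about these loci. NONRATT030577.2 (chrX:71155279-71155851), 6734 bp from Il2rg, had 15, 15 and 14 counts in sham and 54, 65 and 8 in BCP. BCP replicate 3 thus lay below all sham libraries, although the same library held 145 counts of Il2rg. Its log2 fold change was 1.67 (SE 0.71, adjusted p = 0.391), and 2.16 (adjusted p = 0.0222) without BCP replicate 3. NONRATT003144.2, 8306 bp from Il21r, was counted 0, 213 and 0 times in sham and 129, 194 and 2 times in BCP, so that the groups overlapped and libraries of the same group lay far apart (adjusted p = 0.943). The lncRNAs tested over Il15, NONRATT014534.2 (log2 fold change 0.38, SE 0.33, adjusted p = 0.707) and NONRATT014536.2 (0.14, SE 0.56, adjusted p = 0.956), did not pass the test. Where they overlap, reads of these lncRNAs and of Il15 may not be told apart, since the strand setting of the counting is not given in the sources used here.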

How the data were processed

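Total RNA depleted of ribosomal RNA was sequenced in 3 sham and 3 BCP libraries made with a strand-specific kit. The authors aligned reads to Rnor_6.0; the submitters' processing notes name HISAT2 2.0.4 and StringTie 1.3.0, and the strand setting of the counting is not given in the sources used here. The deposited gene and lncRNA tables hold raw read counts and FPKM per library, the FPKM as the authors computed it. Columns of the authors' own comparisons were not used.

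Differences in counts were estimated in R 4.3.3 by edgeR 4.0.16 (robust quasi-likelihood test, TMM factors, condition as the only term, filterByExpr with a minimum count of 10, Benjamini-Hochberg adjustment over all genes tested), the lncRNA counts in a fit of their own. The script was tested on simulated data with 200 changed genes. CPM uses TMM-scaled library sizes. Factors ran from 0.982 to 1.02, and the common biological variation was 7.72%. Ratios of counts were taken with 0.5 added to each count. FPKM was used for levels and, with 0.1 added, in limma 3.58.1 as an alternative. DESeq2 1.42.0, other filters and scalings, the replicate number as a block and leaving out each library were the other alternatives. Within-group pairs of libraries differed by 3.48 to 6.04 times the variance of counting alone, so none was taken for a library deposited again. This does not show that they came from separate rats.

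Named genes are the 10 genes, the listed pathway and marker genes, the 3 tested genes nearest in pattern to Il2rg and to Il10ra, and lncRNAs within 10 kb. The genes and lists were chosen with earlier results of these data known. A gene of the pathway list is counted in its totals and not reported here. Coordinates of genes are those of Rnor_6.0 in the deposited tables, and promoter sequences are from RefSeq on GRCr8, a different build. Intervals and floors cover counting error only.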

Additional observations from a re-analysis of the deposited data

How the results depend on the processing

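The number of the 10 genes called up-regulated was 7 and stayed from 7 to 9 under the alternatives and with each library left out, except that it was 4 when at least 10 counts were asked of every library, a filter that Il2ra, Il2rb, Il21r and Il15 do not pass. With the replicate number as a block the count was again 7, and the pathway count again 6. Same-numbered libraries deviated together with correlations of -0.11, 0.04 and -0.04, and differently numbered ones with -0.12 to 0.14. The numbers thus gave no sign of pairing, but 3 libraries per group cannot exclude it. Over single genes 117 of 123 refits gave the same direction and call, and the other 6 took Il4r or Il10rb past 2-fold or dropped the fold threshold. Without a fold threshold 14 pathway genes were called in place of 6, and with each library left out 5 to 7. The pathway count was 4 when at least 10 counts were asked of every library, a filter that Socs1 and Socs3 do not pass. Of lncRNAs near the genes 0 to 1 was called with a library left out. The difference of Il2rb over Il2rg ran from -0.34 to 0.18 with a library left out, and was 0.09 without sham replicate 3. With a pseudocount of 2 that of Il2rg over Ptprc was -0.07, and with Aif1 as the reference those of Il2rb and Il10ra were 0.97 and 0.36. Over all genes the number called higher was 649 to 1069, or 2352 with no fold threshold, and the number called lower was 16, with a range of 6 to 37 and 1805 with no fold threshold. For Il15 and for Il2ra in sham, with 14 counts or fewer per library, depth limits the precision.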
